A study of Mus musculus with 6 samples.

Results

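Hedgehog pathway genes were followed in bulk RNA-seq of male F1 mouse embryonic stem cells (mESCs) and of the cardiac precursor cell cultures (CPCCs) grown from them. The genes were chosen by symbol: Ptch1, Smo, Gli1, Gli2, Gli3, Sufu, Gas1, Boc and Cdon. All 9 are listed in both deposited gene tables, which together hold 16279 genes. Both groups carry the same F1 genome, labelled C57BL/6 x CAST/EiJ, from C57BL/6J mothers per the study's methods. The mESCs came from 3 blastocysts, each line a clone raised from a single cell, and were kept without feeder cells in medium with LIF and inhibitors of MEK and GSK3 (2i). The CPCCs were made from the same clones as hanging-drop embryoid bodies given ascorbic acid, then dissociated, and were passaged in medium with EGF and FGF2. There are 3 libraries of each. The columns carry no replicate number, so the libraries are called S01 to S03 (mESCs) and S04 to S06 (CPCCs) after their columns, and no CPCC library could be matched to its parent clone.

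Hedgehog ligands (SHH, IHH and DHH) bind the receptor PTCH1, which without ligand keeps the transmembrane protein SMO inactive. Active SMO works at the primary cilium and changes how the zinc finger factors GLI2 and GLI3 are processed: without signal they are held by SUFU and cut, GLI3 above all, into repressors, and with signal they act as activators. GLI1 is an activator whose gene is itself a target of the pathway, as are Ptch1 and Hhip, which makes their transcripts the usual readout of signalling. GAS1, BOC and CDON are surface co-receptors that help ligand bind PTCH1, and Hedgehog signalling is known for its part in the second heart field and in septation of the developing heart.

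mESC libraries held 6442639 to 6907330 counts each and CPCC libraries 8468819 to 11436062, S04 being the deepest, and 3 counts equal 0.262 to 0.466 CPM (the count as a part of its library total, on a scale of 1000000). Floors and bounds from 3 counts cover counting error only. All 10 stem cell markers examined, such as Pou5f1 and Nanog, were lower in CPCCs, with summed levels of 6878 to 7156 CPM in mESC libraries against 147 CPM in S04, 317 CPM in S05 and 464 CPM in S06. The defining cardiac markers were mixed. Of 15 cardiac genes, Mesp1 is in neither table, Tbx5 is not in the CPCC table, Nkx2-5 had 1.40, 0 and 0.945 CPM in S04, S05 and S06, and of the 7 tested only Tnnt2 rose, with a log2 fold change of 5.01. With Nkx2-5, 6 of the 15 are listed for CPCCs only. Among them are Mef2c with 16.96, 9.64 and 13.2 CPM (at least 29.7-fold higher) and Myh6 with 18.6, 5.18 and 9.45 CPM (at least 24.8-fold, 16.3 without S04). Kdr (at least 7.18-fold) and Hand2 (at least 6.72-fold, 3.43 without S04) are others. Summed cardiac markers were 159.7 CPM in S04, 59.8 CPM in S05 and 83.1 CPM in S06. Mesenchyme and fibroblast markers summed to between 14581 and 20138 CPM in CPCCs and between 100.6 and 135.8 CPM in mESCs, and neural markers to between 533 and 668 CPM against 48.6 to 52.0 CPM. Most of the neural sum in CPCCs is Nes, with 296, 397 and 339 CPM in S04, S05 and S06. Endoderm markers summed to between 229 and 263 CPM in CPCCs, against 96.0 to 139.7 CPM in mESCs, and neither table lists Afp, Ttr or Apoa1. Endothelial and blood markers summed to between 12.6 and 37.4 CPM in CPCCs, against 91.4 to 101.4 CPM in mESCs, where most of the sum is Pecam1, which fell with a log2 fold change of -4.35 (edgeR adjusted p = 3.38e-06). The part that these cell mixtures had in the results below was not tested.

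The main exchange in the pathway was between Gli2 and Gli3. Gli2 (chromosome 1, 118834061 to 119053620, minus strand) and Gli3 (chromosome 13, 15463723 to 15730026, plus strand) encode the full-length transducers. Their RefSeq start-site windows on GRCm38.p6, 250 bases before to 50 bases after the annotated start, are shown because these genes moved most clearly in opposite directions. CpG dinucleotides are in capitals. Gli2 is chr1:119053570-119053869, minus strand, and Gli3 is chr13:15463473-15463772, plus strand.
Gli2: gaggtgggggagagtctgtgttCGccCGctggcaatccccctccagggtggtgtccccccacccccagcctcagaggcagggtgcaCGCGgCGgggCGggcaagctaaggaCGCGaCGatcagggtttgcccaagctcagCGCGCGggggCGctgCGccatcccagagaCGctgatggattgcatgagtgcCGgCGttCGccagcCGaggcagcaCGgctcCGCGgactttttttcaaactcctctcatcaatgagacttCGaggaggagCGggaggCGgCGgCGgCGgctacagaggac
Gli3: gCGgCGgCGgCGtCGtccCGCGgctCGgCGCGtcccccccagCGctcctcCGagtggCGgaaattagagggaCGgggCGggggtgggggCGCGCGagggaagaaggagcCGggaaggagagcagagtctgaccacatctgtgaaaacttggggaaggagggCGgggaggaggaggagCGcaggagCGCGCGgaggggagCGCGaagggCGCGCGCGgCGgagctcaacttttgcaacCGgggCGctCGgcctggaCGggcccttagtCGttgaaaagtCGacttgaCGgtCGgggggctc
The Gli2 window holds 28 CpGs and the Gli3 window 39, where the median over 32851 windows of the mouse table is 7. As many as in Gli2 occur in 14.2% of windows and as many as in Gli3 in 4.45%, so both starts lie in CpG-rich sequence, and the genes changed in opposite directions. The other 5 members with a window are Ptch1 with 47 CpGs, Smo and Gas1 with 17 each, Sufu with 12 and Cdon with 3. The GLI consensus GACCACCCA, searched on both strands, is in none of the 7 member windows and in 0.253% of all windows. The looser GACCNCCCA, which includes the first motif, is also in none of the 7 and in 0.977% of all windows. The Ptch1 window lies at a start inside the gene as the count table places it. The Cdon window lies at the start of the count table, inside the longer GENCODE gene model, which starts at 35421128. Its 3 CpGs describe that inner start only.

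The comparison asks how the levels of the pathway's components differ between pluripotent cells and the cultures differentiated from them. Across the 12471 genes tested with edgeR's quasi-likelihood test, 61.4% passed a Benjamini-Hochberg adjusted p of 0.05 (31.7% higher and 29.7% lower in CPCCs). Against that background, 8 members could be tested: 6 were higher, Gli2 was lower, and Ptch1 was not called. Gli1 was removed by the filter on low counts. The same 6 members had all CPCC libraries above all mESC libraries, as 33.8% of tested genes did, and Gli2 had them all below, as 35.5% did. The median log2 fold change was 1.67 over the 8 members and 0.03 over all genes tested. Most genes differed between the 2 cell types, and whether the members differ from other genes was not tested.

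**Figure D1:**
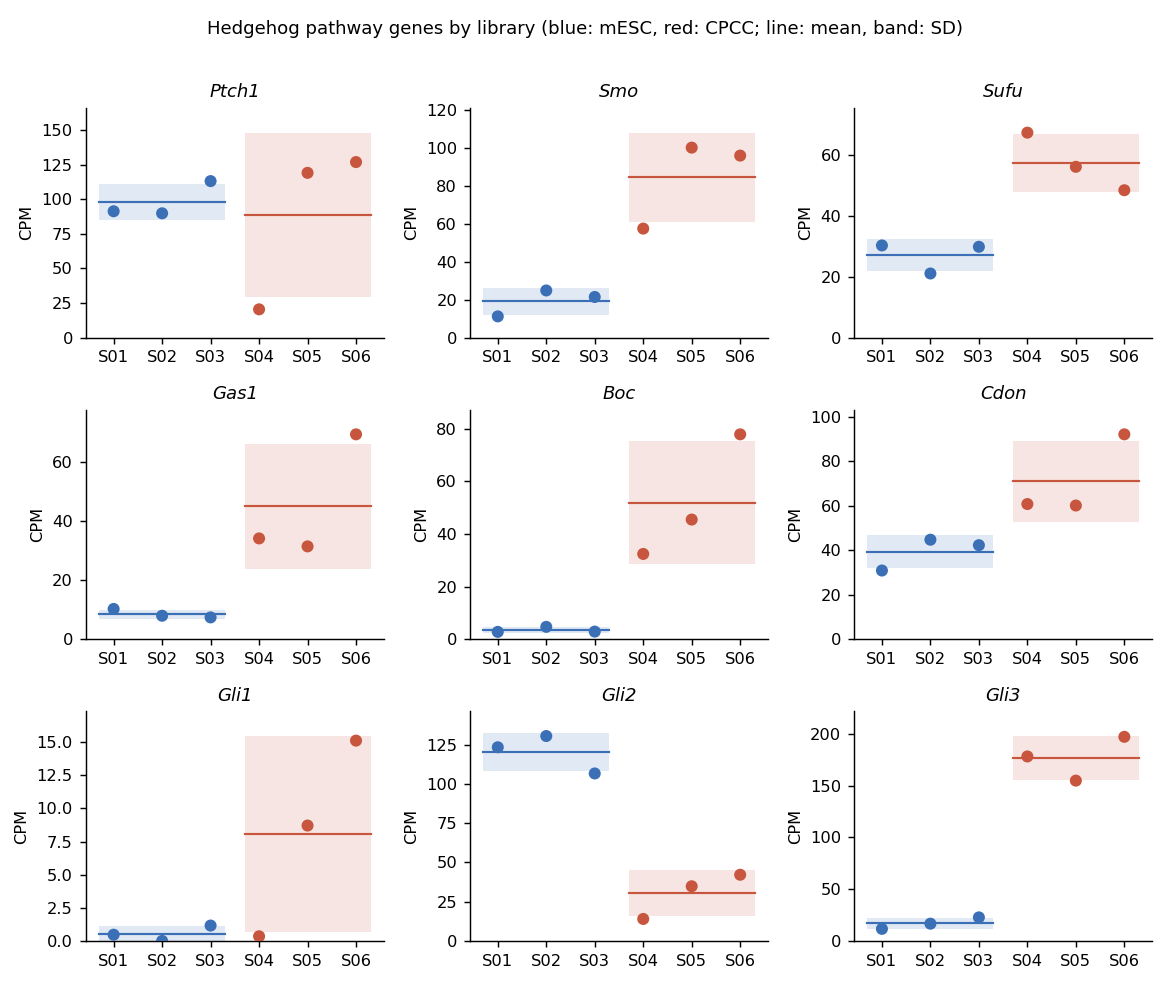
CPM of each member in the 6 libraries, with the group mean as a line and the SD as a band (n = 3 per group); each panel has its own axis from 0. Gli3, Boc, Smo, Gas1, Sufu and Cdon sit higher in every CPCC library, Gli2 lower, and in Ptch1 and Gli1 library S04 lies far below S05 and S06.

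Gli2 was the highest member per length in mESCs and fell in CPCCs. Its levels were 123, 131 and 107 CPM in S01, S02 and S03, against 14.0, 34.8 and 42.2 CPM in S04, S05 and S06. The groups did not overlap, and S04 was the lowest library. Its log2 fold change was -1.96 (SE, the standard error, 0.32, edgeR adjusted p = 0.000703), about 0.256 of the mESC level. In bulk samples such as these, fewer cells that express a gene and less RNA per cell cannot be told apart.

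Gli3, the main source of GLI repressor, had 11.6, 16.6 and 22.7 CPM in mESCs, against 178, 155 and 197 CPM in CPCCs. Every CPCC library was above every mESC library, and the CPCC libraries lay close together. The log2 fold change was 3.43 (SE 0.26, edgeR adjusted p = 1.12e-05), a 10.8-fold rise. Gli3 overlaps the transcript Gm6556 on the opposite strand over 188 exonic bases, and whether the counting used strand is not given in the sources used here.

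Gli1 (chromosome 10, 127329882 to 127341580) was near the floor in mESCs, with 3.01, 0 and 8 estimated counts in S01, S02 and S03, or 0.467, 0 and 1.16 CPM. The 0 in S02 allows a level of up to 0.442 CPM. In CPCCs it had 4 counts in S04, 74 in S05 and 128 in S06, or 0.350, 8.70 and 15.1 CPM. S05 and S06 were above every mESC library, whereas S04 lay within the mESC range. The fit without a filter on low counts gave a log2 fold change of 3.85 (SE 1.23, edgeR adjusted p = 0.0233). That call was lost without S01 (3.75, adjusted p = 0.0730), S02 (3.28, 0.0681), S05 (3.74, 0.0560) or S06 (3.06, 0.0751), each an edgeR fit, while the log2 fold change was 5.05 without S03 (adjusted p = 0.0411) and 4.41 without S04 (adjusted p = 0.000195). Gli1 shares 62 exonic bases with Arhgap9 and 265 with the antisense Gm47200.

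The exchange is plainest as a share of the counts of the 3 GLI genes, which does not depend on how libraries are scaled. Gli2 took 91.1%, 88.7% and 81.7% of them in the mESC libraries S01 to S03, against 7.27%, 17.6% and 16.6% in S04, S05 and S06. Gli3 took 8.59%, 11.3% and 17.4% in mESCs and 92.5%, 78.1% and 77.5% in CPCCs. In every mESC library Gli2 was the main GLI transcript by count, and in every CPCC library Gli3 was. Gli1 took at most 0.887% in an mESC library, 0.182% in S04, 4.39% in S05 and 5.94% in S06. The summed level of the 3 genes was 130.6 to 147 CPM in mESCs and 192 to 254 CPM in CPCCs. These shares describe the libraries and were not tested.

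**Figure D2:**
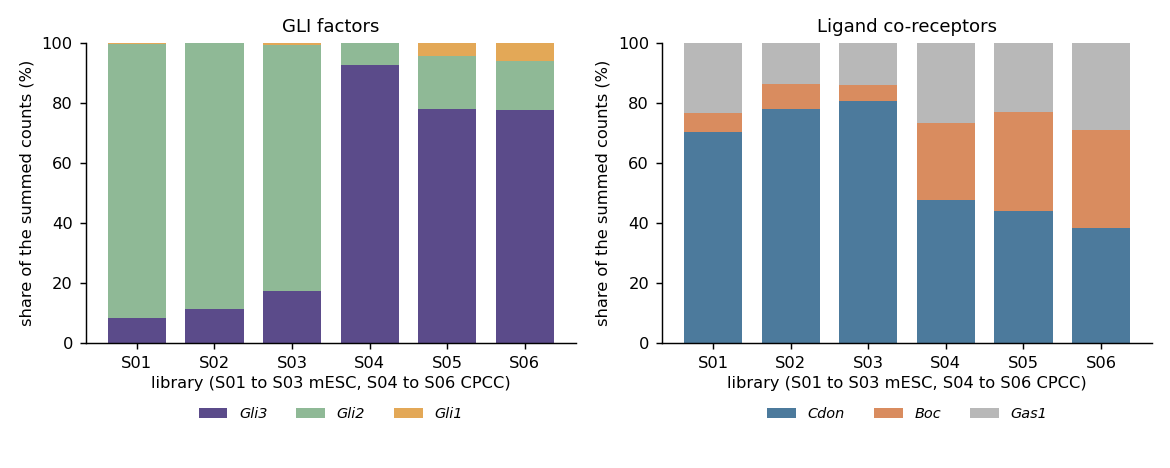
Share of the summed counts of Gli1, Gli2 and Gli3 (left) and of Cdon, Boc and Gas1 (right) that each gene takes in each library, in percent. Gli2 holds 81.7% to 91.1% of the GLI counts in mESC libraries and Gli3 77.5% to 92.5% in CPCC libraries, while Boc holds at most 8.21% of the co-receptor counts in mESCs and at least 25.5% in CPCCs.

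Of the receptor pair, Smo changed and Ptch1 was not called. Ptch1 (chromosome 13, 63508328 to 63573461) had 91.3, 89.8 and 113 CPM in S01, S02 and S03. In CPCCs it had 20.4 CPM in S04, 119 CPM in S05 and 127 CPM in S06. S05 and S06 were above every mESC library and S04 was far below them all, so the CPCC libraries fell on both sides of the mESCs. The log2 fold change was -0.13 (SE 0.50, edgeR adjusted p = 0.829) with a 95% interval from -1.26 to 0.99. Without S04 the estimate turned to 0.34 (adjusted p = 0.0867 from edgeR).

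Smo (chromosome 6, 29735497 to 29761367), the signal transducer that PTCH1 holds in check, had 11.2, 24.9 and 21.4 CPM in mESCs, against 57.6, 100.3 and 96.1 CPM in CPCCs. The groups did not overlap, and S04 was again the lowest CPCC library. The log2 fold change was 2.18 (SE 0.31, edgeR adjusted p = 0.000337). Sufu (chromosome 19, 46396896 to 46488805), which binds GLI proteins in the cytoplasm, had 30.3, 21.0 and 29.8 CPM in mESCs, against 67.3, 56.1 and 48.4 CPM in CPCCs. It rose with a log2 fold change of 1.16 (SE 0.24, edgeR adjusted p = 0.00298), and here S04 was the highest library.

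All 3 co-receptors rose, by very different amounts. Boc (chromosome 16, 44485045 to 44558871), an immunoglobulin-superfamily protein, had 2.79, 4.71 and 2.90 CPM in mESCs, against 32.4, 45.5 and 77.9 CPM in CPCCs. Its log2 fold change of 3.93 (SE 0.36, edgeR adjusted p = 2.87e-05), or 15.2-fold, was the largest of the 8 members tested. Gas1 (chromosome 13, 60174405 to 60177536), a single-exon gene for a GPI-anchored protein, had 10.2, 7.95 and 7.38 CPM in mESCs, against 34.1, 31.4 and 69.3 CPM in CPCCs. It rose by a log2 fold change of 2.43 (SE 0.32, edgeR adjusted p = 0.000216). The long noncoding Gm48488 covers 589 bases, or 19.9%, of the Gas1 exon on the opposite strand, so reads of the 2 genes may not have been separated. Cdon (chromosome 9, 35452076 to 35507653), a relative of Boc, was already present in mESCs with 30.9, 44.7 and 42.3 CPM, and had 60.8, 60.1 and 92.1 CPM in CPCCs. Its log2 fold change of 0.90 (SE 0.22, edgeR adjusted p = 0.00635) was the smallest of the called members.

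The makeup of the co-receptor counts changed with these rises. Shares of counts are not corrected for gene length. Per kilobase of exons, the mean CPCC levels were 15.2 CPM for Gas1, 11.7 CPM for Boc and 9.20 CPM for Cdon. Cdon took 70.3%, 77.9% and 80.4% of the counts of the 3 genes in mESCs and 47.7%, 43.9% and 38.5% in CPCCs. Boc went from 6.36%, 8.21% and 5.51% to 25.5%, 33.2% and 32.6%. Gas1 took 13.8% to 23.3% in mESCs and 22.9% to 29.0% in CPCCs, ranges that overlap. S06 had the highest level of each of the 3 genes, and their sum was 127 CPM in S04, 137 CPM in S05 and 239 CPM in S06.

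**Figure D3:**
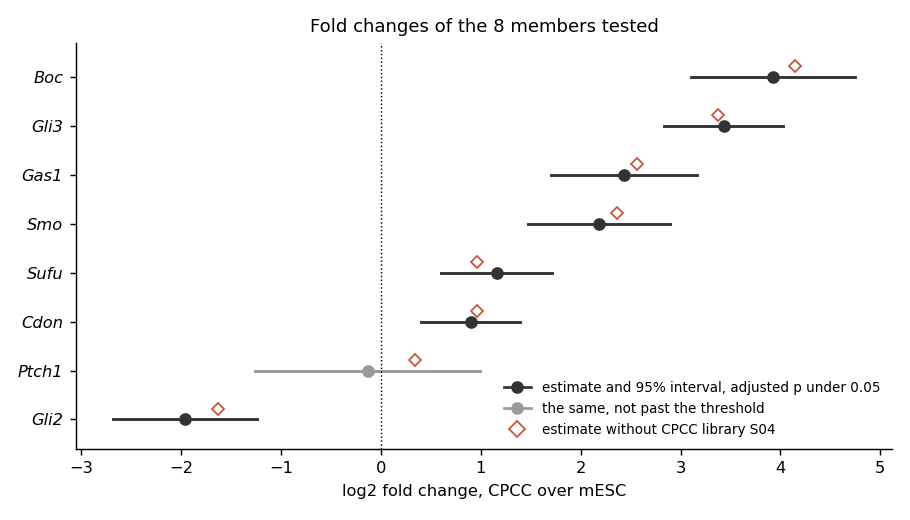
Log2 fold change of CPCCs over mESCs for the 8 members tested, from edgeR, with 95% intervals as lines; open diamonds give the estimate without library S04. Boc and Gli3 lie farthest to the right and Gli2 is the only called member left of 0, while leaving out S04 moves Ptch1 from -0.13 to 0.34.

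Levels can be compared between genes only per length, here as CPM per kilobase of annotated exons. In mESCs the order of means was Gli2 (17.5), Ptch1 (6.91), Cdon (5.09), Sufu (3.52), Smo (3.41), Gas1 (2.88), Gli3 (1.77), Boc (0.779) and Gli1 (0.108). Libraries of neighbours in that order did not overlap, except for Sufu with Smo and Smo with Gas1. In CPCCs Gli3 came first (18.4), followed by Gas1 (15.2), Smo (15.1), Boc (11.7), Cdon (9.20), Sufu (7.45), Ptch1 (6.26), Gli2 (4.41) and Gli1 (1.61). There every pair of neighbours overlapped across libraries. Within single libraries Gli2 was above Gli1 in S04 (2.04 against 0.070), S05 (5.07 against 1.74) and S06 (6.14 against 3.03). Each other pair of neighbours changed order between libraries.

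Transcripts of 2 ligand genes were found in CPCCs. Shh is not listed for mESCs and had 1.92 CPM in S04, 18.2 CPM in S05 and 10.6 CPM in S06, at least 22.9-fold higher in CPCCs against 3 counts per mESC library (14.0-fold without S05). Dhh had 1.24, 0.736 and 0.145 CPM in mESCs, against 6.65, 7.06 and 4.37 CPM in CPCCs (log2 fold change 3.15, SE 0.67, edgeR adjusted p = 0.00309). The log2 fold change of Dhh ran from 2.68 to 3.80 when a library was left out. Ihh is in neither table. Scube1, one of a family of secreted proteins whose member SCUBE2 helps release lipid-modified ligand, rose with a log2 fold change of 4.88 (adjusted p = 0.000225 from edgeR), or 4.16 without S05. Scube2 itself was not called, at -0.93 (adjusted p = 0.328 from edgeR). Of the 9 genes for ligands and their release, 6 were tested, 5 were higher and none was lower (83.3% called, against 61.4% of all genes tested), with a median log2 fold change of 2.01.

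The further surface modulators went the same way where they were called. Of 10 genes 9 were tested, 7 were higher and 2 not called (77.8% called, against 61.4% of all genes), with a median log2 fold change of 2.65, and Mosmo is in neither table. Hhip, a membrane protein that traps ligand, had 0.776, 0.442 and 2.32 CPM in mESCs, against 12.3, 18.2 and 19.6 CPM in CPCCs. It rose with a log2 fold change of 3.84 (SE 0.53, edgeR adjusted p = 0.000281), which ran from 3.45 to 4.80 when a library was left out. Lrp2, an endocytic receptor that also binds SHH, rose by 3.89 (adjusted p = 0.000170 from edgeR) and had 55.2, 144 and 256 CPM in S04, S05 and S06.

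Cytoplasmic regulators and cilium genes had smaller median changes. Of 21 cytoplasmic regulators 11 were higher, 2 lower and 8 not called, with a median log2 fold change of 0.80 and a called share of 61.9%, near the 61.4% of all genes. Csnk1g1, a casein kinase, rose by 1.95 (adjusted p = 0.000128 from edgeR), and Spop, the adaptor of a ubiquitin ligase for GLI proteins, rose by 1.80 (7.80e-05). Btrc, the F-box protein that directs processing of GLI3, fell with a log2 fold change of -0.999 (adjusted p = 0.00257 from edgeR). Arrb2, an arrestin, was called lower at -1.37 (adjusted p = 0.0393 from edgeR), but its groups overlap and the call was lost without S01, S02 or S05, with an adjusted p of at most 0.117. Without S06 it was -2.05. Of 37 cilium genes 15 were higher, 3 lower and 19 not called (median 0.66), a called share of 48.6% against 61.4% of all genes. Among them, the intraflagellar transport gene Ttc21b had 0.310, 2.65 and 0 CPM in mESCs, against 7.17, 6.35 and 9.33 CPM in CPCCs, a log2 fold change of 2.98 (edgeR adjusted p = 0.0184) that lost its call without S01 (edgeR adjusted p = 0.0654) and was 5.58 without S02. The BBSome subunit gene Bbs7 rose by 2.31 (adjusted p = 0.00113 from edgeR). Ift52 and Talpid3, which the tables list as 2700049A03Rik, fell with log2 fold changes of -1.37 and -1.34 (adjusted p = 0.000126 and 0.00156 from edgeR).

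The list of 27 genes known as GLI targets in one tissue or another did not move one way. Of the 15 tested, 8 were higher, 4 lower and 3 not called (80.0% called, against 61.4% of all genes, of which 31.7% were higher and 29.7% lower), with a median log2 fold change of 0.83. Another 11 are listed for CPCCs only and Osr2 for mESCs only. Ccnd2, a D-type cyclin, went from 0.434 to 2.06 CPM in mESC libraries to between 1186 and 1468 CPM in CPCC libraries. Its log2 fold change was 10.32 (adjusted p = 1.28e-06 from edgeR), and 9.96 to 11.30 when a library was left out. Foxa2, a floor plate gene that is also one of the endoderm markers, had 5.25, 45.6 and 17.5 CPM in S04, S05 and S06 and a log2 fold change of 4.94 (adjusted p = 0.00132 from edgeR). It was 3.92 without S05 and 5.89 without S03, and still called. Tbx3 and Prdm1, transcription factors also known from stem and germ cells, fell with log2 fold changes of -5.36 and -2.83 (adjusted p = 1.88e-06 and 0.00581 from edgeR). Prdm1 ran from -3.85 to -2.27 when a library was left out. Osr2 was at least 19.1-fold lower in CPCCs. Of the genes listed for CPCCs only, the 5 with the largest bounds, picked by their values, were Bcl2 (at least 127-fold higher), Foxf2 (46.5), Osr1 (32.4), Tbx2 (26.1) and Grem1 (15.3).

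**Figure D4:**
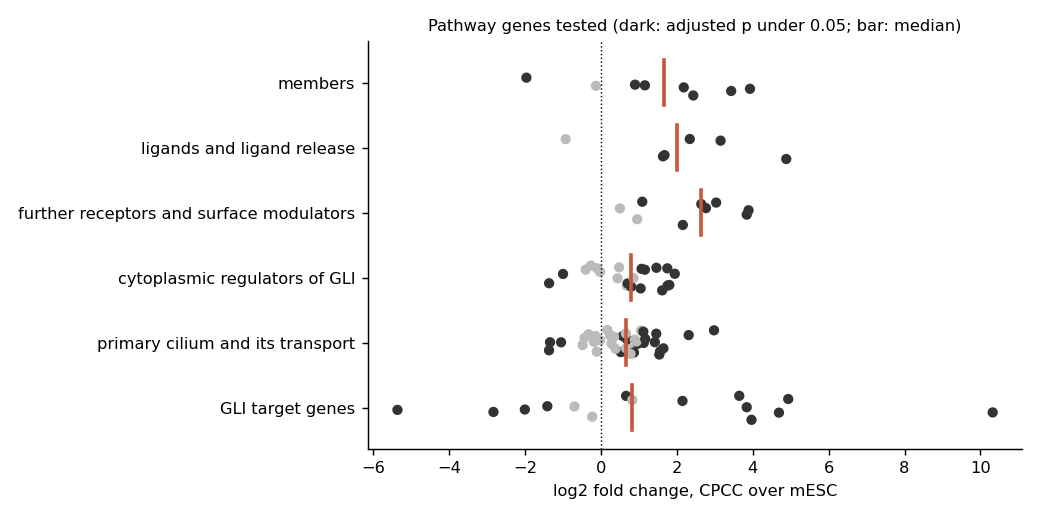
Log2 fold change of CPCCs over mESCs for each gene tested, by list, with genes past an adjusted p of 0.05 in edgeR in dark and the list's median as a bar. Medians run from 0.66 for cilium genes to 2.65 for surface modulators, and the targets spread from -5.36 to 10.32; Hhip stands in 2 lists.

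The CPCC libraries differed widely from one another in several genes of the pathway, Gli1 and Ptch1 among them. On the scale log2(CPM + 0.5), the range over S04, S05 and S06 was 4.20 for Gli1, 2.95 for Shh and 2.61 for Ptch1. The median range was 0.66 over the 13909 genes with a mean of at least 1 CPM in CPCCs. Only 7 genes of these, Gli1 included, had a range as wide as that of Gli1, and 2.42% had one as wide as Ptch1. In all 3 genes S04 was the low library, which was noticed after their values were seen. The gap from S04 up to the lower of S05 and S06 was 3.44 for Gli1, 2.52 for Ptch1 and 2.20 for Shh, where the median gene had 0.05. Gaps as large were found in 6, 69 and 133 of the 13909 genes. Not every target or component followed: the gap was 0.55 for Hhip, 0.73 for Smo and -0.20 for Gli3, and Dhh was lower in S06 than in S04. Gli2 had a gap of 1.29, and 5.88% of genes had one as large. The gap was 0.48 for Boc, -0.02 for Cdon, -0.12 for Gas1 and -0.47 for Sufu.

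S04 also differed in depth and in its markers. It had the most counts, the lowest sums of stem cell and neural markers, and the highest sums of cardiac and of endothelial and blood markers. Of the neural markers, Sox1 had 3.32, 22.7 and 52.4 CPM in S04, S05 and S06 and Pax6 4.06, 13.8 and 18.7 CPM, whereas Tubb3 was highest in S04, at 189 CPM. Of the endoderm markers, Foxa2 was lowest in S04, while Gata6 (35.2, 7.29 and 7.56 CPM) and Dab2 (165, 116 and 102 CPM) were highest there. The part of these in the low levels of Ptch1 and Gli1 was not tested. The summed stem cell markers stood at 2.11% of their mESC mean in S04, 4.53% in S05 and 6.63% in S06. Ptch1 stood at 20.8%, 121% and 129% of its mESC mean, and Gli2 at 11.6%, 29.0% and 35.1%. Single stem cell markers differed from their sum: Klf4 had 65.3 CPM in S04 against a mean of 396 CPM in mESCs. The part that leftover stem cells had in the levels of Ptch1 and Gli2 was not tested.

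**Figure D5:**
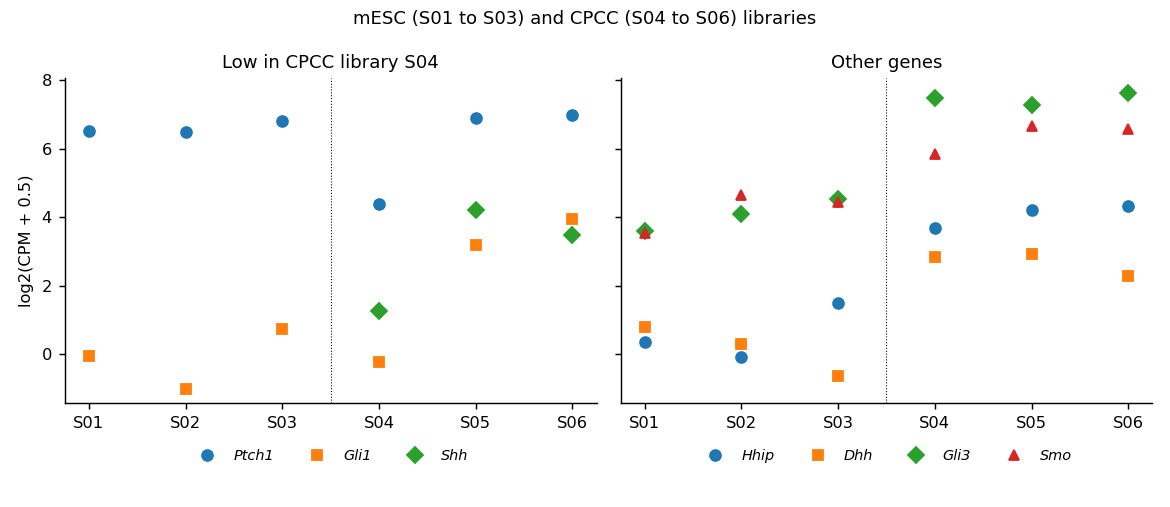
Level of 7 pathway genes in each library as log2(CPM + 0.5), with Ptch1, Gli1 and Shh on the left and Hhip, Dhh, Gli3 and Smo on the right. Among CPCC libraries the genes on the left are lowest in S04, by 2.20 to 3.44 below the next library, and those on the right differ less; Shh has no mESC value.

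The genes whose log2 CPM was most like that of Ptch1 over the 6 libraries, among the 12471 tested, were Pcif1 (Pearson r 0.989), Ogg1 (0.988), BC080695 (0.986), Rprd1b (0.984) and Phf19 (0.983). All 5 were lowest in S04, as Ptch1 was, and the 6 points share their libraries and fall into 2 cell types. Pcif1, for example, had 15.2, 16.0 and 17.8 CPM in mESCs, against 3.67, 16.3 and 17.8 CPM in CPCCs.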

How the data were processed

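PolyA-selected cDNA libraries were made by the authors with the SMART-Seq v4 kit, and the submitters' notes name STAR 2.7 and mm10. Each cell type has its own table, in which the authors deposited estimated counts for every gene, raw and summed over both alleles. In each library 17.8% to 21.4% of the values are not whole. The counter and its use of strand are not given in the sources used here. Each table leaves out genes under 10 counts over its 3 libraries. The study's reporting summary describes the 3 replicates of a group as clones from 3 blastocysts. Which library is which clone cannot be read from the columns, and p-values measure the spread between libraries.

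Counts were rounded and the 13001 genes in both tables tested with edgeR 4.0.16 in R 4.3.3 (TMM, filterByExpr, which removed 530, quasi-likelihood test, Benjamini-Hochberg over all 12471 genes). The standard error is the log2 fold change over the square root of F. CPM use whole library totals, and fold changes use TMM. A gene missing from a table is bounded by 3 counts per library. Alternatives were DESeq2 1.42.0, other normalizations and filters, missing genes at 0, and leaving out each library. The fits were tested on simulated counts. Exon lengths are GENCODE models and start-site windows RefSeq on GRCm38.p6; Gli1, Boc and Shh have no window there.

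Named were the 9 members, Shh, Ihh, Dhh and Hhip, the 2 largest called rises and falls of each other list, and the 5 genes most like Ptch1, as Gli1 was not tested. Outside this rule, Scube2, Mosmo, Osr2 and the 5 targets listed for CPCCs only with the largest bounds were named too. Members and lists were chosen with earlier results of these data known. One further gene is not reported here and is left out of the list counts. Markers are given as sums and counts, apart from defining ones and those named beside a sum. Figures were drawn with matplotlib 3.10.9 in Python 3.11.15.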

Additional observations from a re-analysis of the deposited data

How the results depend on the processing

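Over 188 alternative values of 21 results, 183 kept their direction and their side of the threshold, or stayed within 1.5 times the main count or, for a share, within 1 SD between libraries. The SD of the Gli1 share is wide: its difference between the cell types, 3.09 percentage points, was 1.87 without S06 and 4.76 without S04. Over the alternatives, 10 to 16 cytoplasmic regulators and 14 to 21 cilium genes were called. The 7 members called in the main fit kept their calls under every alternative run, with adjusted p of at most 0.0322 (Cdon). Ptch1 turned from -0.13 to 0.34 without S04, and its log2 fold change over the fits that each leave out 1 library ran from -0.43 to 0.34. Gli1 ran from 3.06 to 5.05 in those fits, all without the low-count filter, and lost its call in 4 of the 6. DESeq2 and the minimum of 10 counts gave no value for Gli1. The number of genes called ran from 6536 to 7895 when a library was left out, and was 7896 with DESeq2 (1 adjusted p not given), 6560 with at least 10 counts in every library and 8848 with missing genes set to 0. With missing genes at 0 the median log2 fold change of all genes was 0.17 rather than 0.03. No paired analysis was possible because the columns of the count tables carry no replicate numbers. Depth limits Gli1 in mESCs, where the 3 libraries hold 3.01, 0 and 8 counts.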
